A study of Mus musculus with 10 samples.

Results

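The TNF superfamily ligands and receptors were followed in bulk RNA of mouse colon tumors that kept or lost Wls in the intestinal epithelium. Members were taken by name: the numbered Tnfsf and Tnfrsf genes together with Tnf, Ltb, Fas, Cd40, Cd27, Ltbr, Ngfr and Eda2r. The expression table held 33 such names among 16875, of which 9 encode ligands and 24 encode receptors, and all 33 had a mean of at least 0.5 FPKM (fragments mapped to a gene, scaled to its transcript length and to the size of the library) over the 10 tumors. Tnfsf12 and Tnfsf13 carried identical values in every tumor, as did Tnfrsf22 and Tnfrsf23, so the table held 31 distinct profiles of members. Another 8 annotated genes that fit the same naming rule, Fasl, Lta, Tnfrsf13c, Tnfrsf17, Tnfsf8, Tnfsf11, Tnfsf14 and Tnfsf18, were not analysed here.

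Tumors were induced in C57BL/6 mice by the carcinogen azoxymethane (AOM) followed by 3 cycles of 2% dextran sodium sulfate (DSS), a colitis-inducing polymer, and were macrodissected from the colon. The 5 control tumors came from Wls flox/flox mice. The 5 Villin-WlscKO tumors came from Villin-Cre ERT2, Wls flox/flox mice, in which tamoxifen (80 mg/kg, 5 daily injections starting 30 days before collection) activates a Cre that the Villin promoter restricts to intestinal epithelium, so that stromal and immune cells keep Wls. Wls encodes the carrier that Wnt ligands need to leave the cell. The number of mice behind the tumors was not given, so n counts tumors and p-values measure the spread between tumors.

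TNF superfamily ligands are mostly trimeric proteins held on the cell surface or shed from it. Some of their receptors can recruit caspase 8 through an intracellular death domain, and many recruit TRAF adaptor proteins that switch on NF-kB. The same signals drive inflammation, lymphocyte survival and epithelial cell death in the gut. Several receptors lack a signaling tail or are secreted and act as decoys that hold ligand away from its signaling partner.

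Wls itself ranged from 61.3 to 79.9 FPKM in the control tumors and from 2.03 to 11.7 FPKM in the Villin-WlscKO tumors. The groups also differed in sex-linked transcripts: Xist lay between 0.0366 and 0.420 FPKM in the control tumors and between 439 and 701 FPKM in the Villin-WlscKO tumors, while the Y-linked Eif2s3y lay between 30.4 and 46.6 FPKM in the control tumors and at no more than 0.138 FPKM in the others. Per the study, tumors with intact Wnt secretion had no tamoxifen unless stated otherwise, so genotype, sex and tamoxifen cannot be told apart in any comparison below. Villin-WlscKO tumors 2 and 3 stood apart in squamous markers: the basal keratin Krt5 was at 469.5 and 669 FPKM in them and at no more than 0.315 FPKM in the other 8 tumors, and 7 squamous markers summed to 1003 and 1346 FPKM against 12.8 to 215 FPKM. Other keratins of the list were present outside the pair, with Krt14 at 113 FPKM in control tumor 1. Values without this pair are given beside each named superfamily member or downstream gene whose call they end or begin. Calls of cell type marker genes were not checked without it. The 10 colon epithelial markers, among them Epcam and Cdx2, summed to 6714 to 9743 FPKM in control and 8485 to 12144 FPKM in Villin-WlscKO tumors. All 10 had positive changes, and Krt20, a keratin of differentiated surface cells, was the 1 that rose (176 to 327 FPKM, limma adjusted p = 0.0156).

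**Figure D1:**
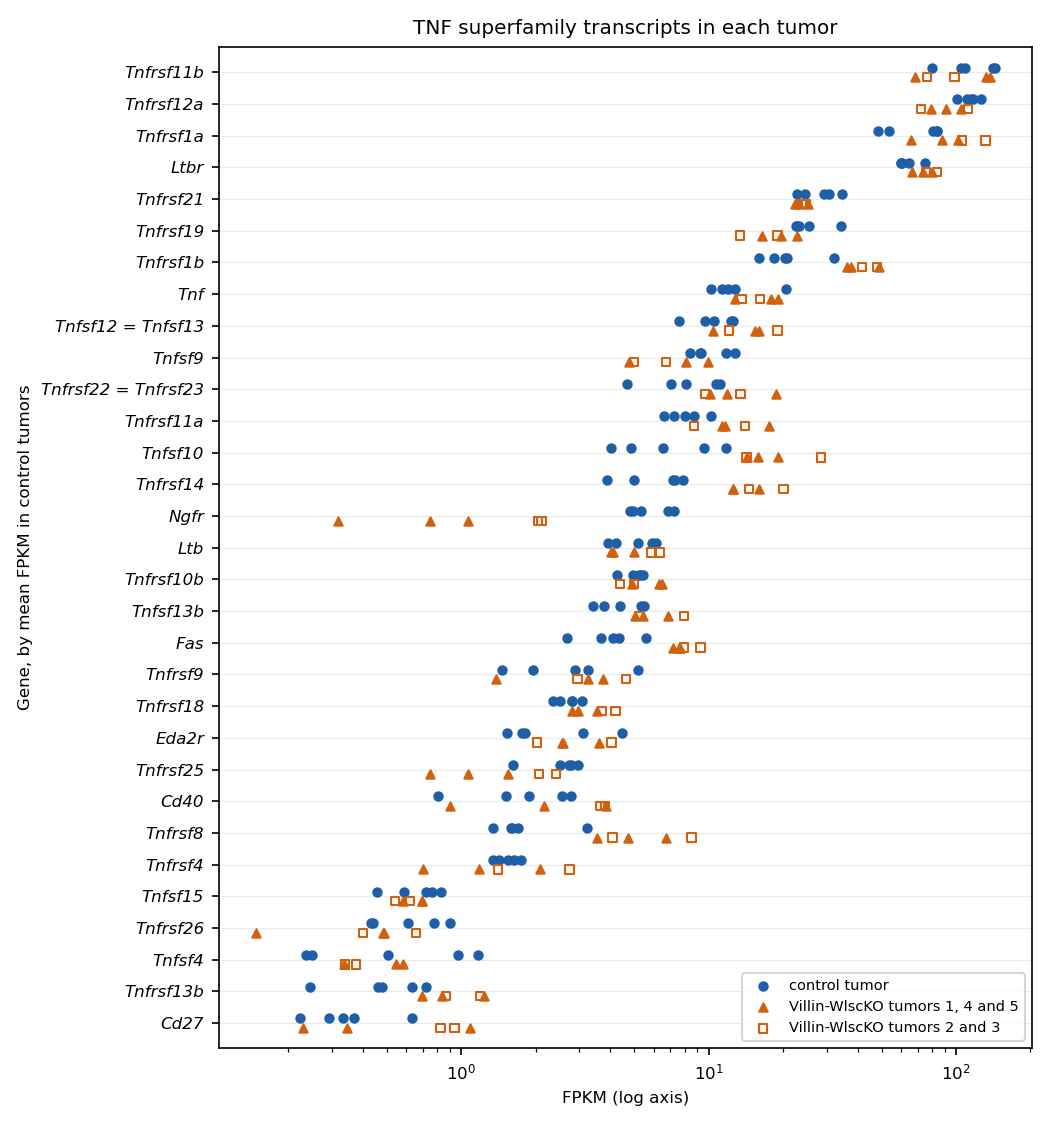
FPKM (log axis) of each superfamily member in each of the 10 tumors, genes ordered by their mean in control tumors, with circles for control tumors, triangles for Villin-WlscKO tumors 1, 4 and 5 and open squares for Villin-WlscKO tumors 2 and 3. The 6 members whose groups do not overlap are Tnfsf10, Tnfrsf14, Tnfrsf8, Tnfrsf1b, Fas and Ngfr.

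The most abundant members were receptors. In control tumors osteoprotegerin (Tnfrsf11b), the secreted decoy for RANKL and TRAIL, averaged 116 FPKM, the TWEAK receptor Fn14 (Tnfrsf12a) 114 FPKM, the main TNF receptor Tnfrsf1a 70.0 FPKM and the lymphotoxin beta receptor Ltbr 64.1 FPKM. Tumors of osteoprotegerin and Fn14 overlapped, as did those of osteoprotegerin and Tnfrsf1a and those of Tnfrsf1a and Ltbr. These pairs had no order beyond their spread. Among ligands Tnf had the highest mean in control tumors at 13.3 ± 4.11 FPKM (SD, n = 5). Its control values overlapped those of Tnfsf12, Tnfsf9 and Tnfsf10. In Villin-WlscKO tumors Tnfsf10 averaged 18.4 ± 5.95 FPKM and Tnf 15.9 ± 2.71 FPKM, with overlapping tumors and so no order beyond their spread. The 5 lowest members in each group stayed below 1 FPKM on average, including Cd27, Tnfsf4 and Tnfsf15, and their values rest on little RNA. A mean between 1 and 10 FPKM was held by 17 members in control and 13 in Villin-WlscKO tumors, and a mean from 10 to 50 FPKM by 7 and 11.

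Of the 33 members, 6 passed the test between genotypes, limma on log2(FPKM + 1) with Benjamini-Hochberg adjustment over all 16757 tested genes at an adjusted p under 0.05. They were 18.2% of the members, beside 10.9% of all tested genes. Higher in Villin-WlscKO tumors were 5 (the background in this direction was 6.12%), namely the ligand Tnfsf10 and the receptors Tnfrsf14, Tnfrsf8, Tnfrsf1b and Fas. The receptor Ngfr was the 1 lower member (background 4.75%). The same 6 members were those whose tumors did not overlap between groups, each with the smallest exact two-sided permutation p that 5 against 5 tumors allow (0.00794), whereas 10.1% of all tested genes showed no overlap (5.33% with the Villin-WlscKO tumors above and 4.76% with them below). Of all 33 members 21 had a positive and 12 a negative change, beside 8617 and 8140 of the 16757 tested genes. The median change was 0.26 on the log2(FPKM + 1) scale beside 0.0073 over all tested genes. With identical pairs counted once, 19 of 31 members had a positive change and the median was 0.24.

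**Figure D2:**
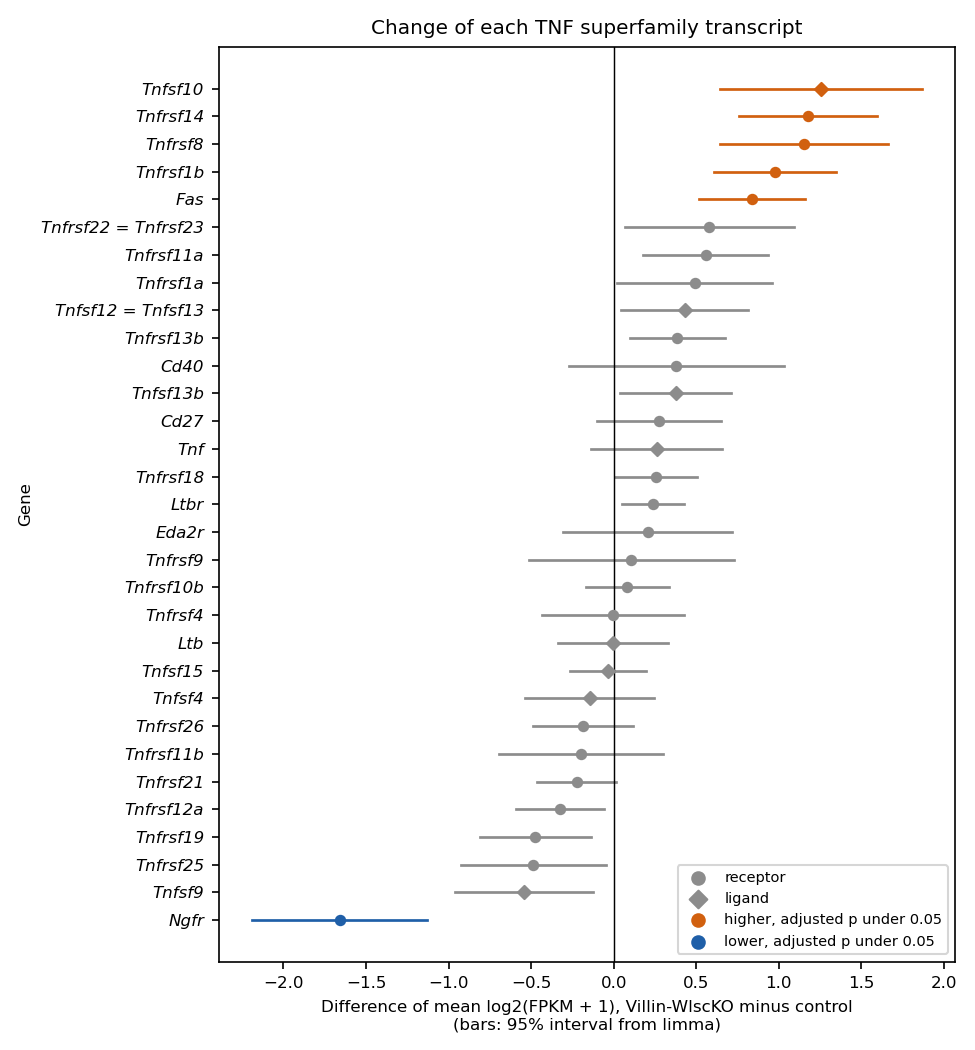
Change of each member between genotypes (Villin-WlscKO minus control) on the log2(FPKM + 1) scale, with bars for the 95% confidence interval from limma. Diamonds are ligands and circles receptors, and the colored points are the 6 members past an adjusted p of 0.05, from Tnfsf10 at 1.26 to Ngfr at -1.66.

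Tnfsf10 encodes TRAIL, the ligand that triggers apoptosis through death receptor 5 (chromosome 3, 27317028 to 27342427, GRCm38). Its level in control tumors 1 to 5 was 4.04, 4.85, 11.8, 9.58 and 6.53 FPKM, and in Villin-WlscKO tumors 1 to 5 it was 15.9, 28.4, 14.2, 19.1 and 14.3 FPKM. Every Villin-WlscKO tumor lay above the highest control tumor, with tumor 2 the highest. The mean rose from 7.36 ± 3.26 to 18.4 ± 5.95 FPKM (SD, n = 5 each), a log2 change of 1.26 with an SE of 0.28 (limma adjusted p = 0.0166). Without Villin-WlscKO tumors 2 and 3 the change was 1.14 and no longer passed (limma adjusted p = 0.0633).

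None of the measured TRAIL receptors passed. Tnfrsf10b, the mouse death receptor 5, averaged 5.02 ± 0.463 FPKM in control and 5.41 ± 0.921 FPKM in Villin-WlscKO tumors, a change of 0.08 with a 95% interval from -0.17 to 0.34 (limma adjusted p = 0.711). The decoys Tnfrsf22 and Tnfrsf23, which share 1 set of values, averaged 8.32 ± 2.67 and 12.8 ± 3.65 FPKM (change 0.58, 95% interval 0.07 to 1.09, limma adjusted p = 0.144). Osteoprotegerin, from 79.9 to 144 FPKM in control and from 68.5 to 137 FPKM in Villin-WlscKO tumors, had a change of -0.20 (limma adjusted p = 0.640).

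Fas, the death receptor for Fas ligand (chromosome 19, 34290666 to 34327772), measured 2.68, 4.33, 5.59, 3.67 and 4.10 FPKM in control tumors 1 to 5. In Villin-WlscKO tumors 1 to 5 it measured 7.15, 7.93, 9.26, 7.60 and 7.69 FPKM, with all tumors above control tumor 3, the highest control. The mean rose from 4.07 ± 1.06 to 7.92 ± 0.798 FPKM, a log2 change of 0.84 (SE 0.14, limma adjusted p = 0.00521). In the Villin-WlscKO group the SD was small beside the mean, and the call held in each alternative, with limma adjusted p between 0.00204 and 0.0386.

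Ngfr, the p75 neurotrophin receptor, carries a death domain and is known from nerve and mesenchymal cells (chromosome 11, 95568818 to 95587735). Control tumors 1 to 5 had 5.30, 4.81, 4.96, 7.26 and 6.84 FPKM, and Villin-WlscKO tumors 1 to 5 had 0.746, 2.04, 2.11, 0.316 and 1.07 FPKM. The lowest control tumor lay above every Villin-WlscKO tumor, and within the latter group the squamous pair had the highest values. The mean fell from 5.83 ± 1.13 to 1.26 ± 0.794 FPKM, a log2 change of -1.66 (SE 0.24, limma adjusted p = 0.0019), and without tumors 2 and 3 the change was -2.01 (limma adjusted p = 0.000876). In these bulk samples fewer cells of a type and less RNA per cell cannot be told apart. Fibroblast markers (6 genes) summed to 278 to 1010 FPKM in control and 378 to 1150 FPKM in Villin-WlscKO tumors, with Col3a1 the largest part in each tumor. Endothelial markers (5 genes) summed to 11.4 to 42.1 and 11.3 to 42.8 FPKM. Neither sum separated the groups. Of the 6 fibroblast genes 5 had positive changes and Pdgfra a negative one (-0.39), with none past the threshold. No nerve or glial markers were among the lists, and the part of any cell type in the fall of Ngfr was not tested.

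The remaining death domain receptors did not pass. Tnfrsf1a lay between 48.3 and 84.1 FPKM in control and between 65.5 and 132 FPKM in Villin-WlscKO tumors (change 0.49, 95% interval 0.02 to 0.96, limma adjusted p = 0.178). Death receptor 6 (Tnfrsf21) averaged 28.3 and 23.9 FPKM (change -0.22, limma adjusted p = 0.227), with all 5 Villin-WlscKO tumors within 22.4 to 25.3 FPKM. Death receptor 3 (Tnfrsf25) averaged 2.53 ± 0.532 and 1.56 ± 0.685 FPKM (change -0.49, limma adjusted p = 0.150), and of all alternatives tried passed only without Villin-WlscKO tumors 2 and 3 (change -0.74, limma adjusted p = 0.0481). Of the 6 death domain receptors, 1 was thus higher and 1 lower.

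Tnfrsf1b encodes TNFR2, the TNF receptor without a death domain that prevails on lymphocytes and myeloid cells (chromosome 4, 145213463 to 145246870). Its level was 15.98, 18.3, 32.1, 20.4 and 20.8 FPKM in control tumors 1 to 5 and 36.3, 41.6, 48.0, 49.0 and 37.6 FPKM in Villin-WlscKO tumors 1 to 5. Control tumor 3 stood above its group yet below all Villin-WlscKO tumors. The mean rose from 21.5 ± 6.20 to 42.5 ± 5.84 FPKM, a log2 change of 0.98 (SE 0.17, limma adjusted p = 0.00478).

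Its ligand Tnf measured 10.2, 11.3, 20.5, 11.95 and 12.8 FPKM in control tumors and 19.0, 13.6, 16.1, 17.9 and 12.7 FPKM in Villin-WlscKO tumors. The groups overlapped, with control tumor 3 the highest of all 10. A change of 0.26 had a 95% interval from -0.14 to 0.65 (limma adjusted p = 0.404), an interval that holds both no change and an increase of that size. Ltb, which with lymphotoxin alpha forms the ligand of Ltbr, averaged 5.08 ± 0.983 and 5.06 ± 1.03 FPKM (change -0.0058, 95% interval -0.34 to 0.33, limma adjusted p = 0.989).

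Tnfrsf14 encodes HVEM, the receptor of LIGHT and partner of the inhibitory protein BTLA (chromosome 4, 154921933 to 154928563). In control tumors 1 to 5 it stood at 4.98, 7.30, 7.89, 3.86 and 7.18 FPKM, and in Villin-WlscKO tumors 1 to 5 at 12.6, 20.05, 14.6, 12.6 and 16.03 FPKM. In FPKM the lowest Villin-WlscKO tumor exceeded the highest control tumor by more than the whole range of the control tumors. On the log2(FPKM + 1) scale it did not. The mean rose from 6.24 ± 1.73 to 15.2 ± 3.09 FPKM, a log2 change of 1.17 (SE 0.19, limma adjusted p = 0.00345). Ltbr averaged 64.1 ± 6.44 and 75.8 ± 6.59 FPKM, with a change of 0.24 that did not pass (limma adjusted p = 0.101), though it did without control tumor 3 (limma adjusted p = 0.0323) and with all tumors at 1 common FPKM sum (limma adjusted p = 0.0462).

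Tnfrsf8 encodes CD30, a receptor of activated lymphocytes (chromosome 4, 145267137 to 145315164, 20266 bases from Tnfrsf1b on the same strand). Control tumors 1 to 5 had 1.60, 1.69, 3.23, 1.35 and 1.58 FPKM, and Villin-WlscKO tumors 1 to 5 had 3.53, 4.09, 8.51, 4.70 and 6.73 FPKM. In each group the tumor numbered 3 was the highest, and the control value came close to the lowest Villin-WlscKO value. The mean rose from 1.89 ± 0.761 to 5.51 ± 2.07 FPKM, a log2 change of 1.15 (SE 0.23, limma adjusted p = 0.0106). Whether reads of the neighboring genes on chromosome 4 were kept apart was not tested.

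**Figure D3:**
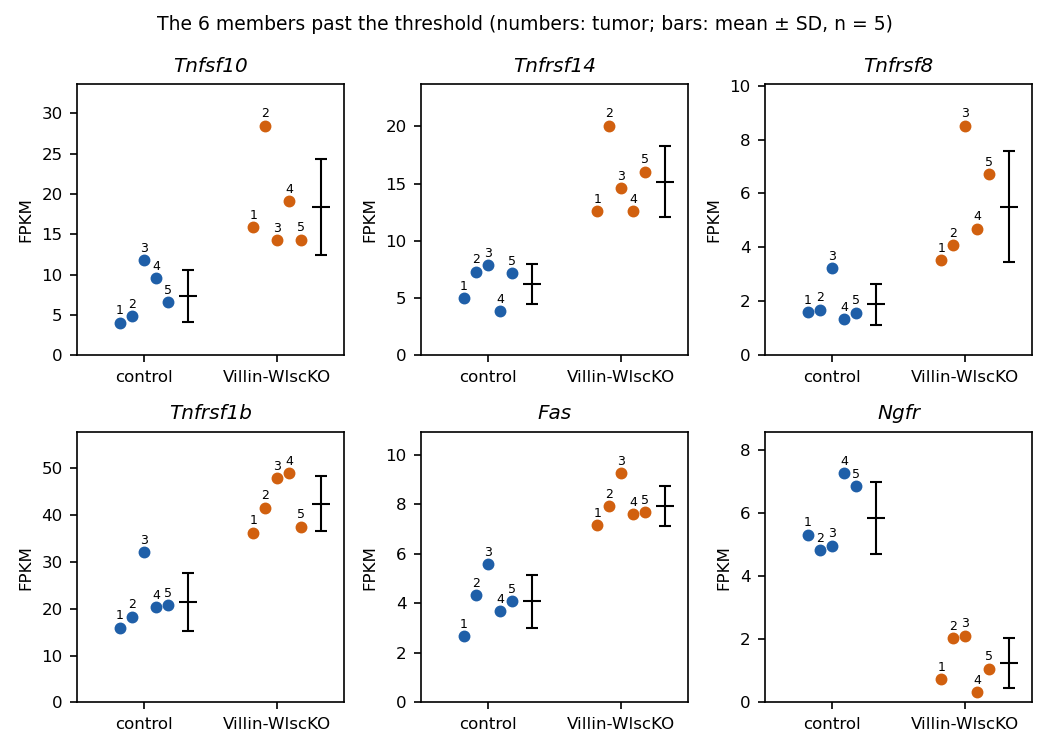
FPKM of Tnfsf10, Tnfrsf14, Tnfrsf8, Tnfrsf1b, Fas and Ngfr in each tumor, with the mean and SD of each group of 5. In each panel the tumors of the groups do not overlap, and control tumor 3 is the highest control tumor in all panels but that of Ngfr.

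The promoters of the 5 members that rose are shown because each passed the threshold in the same direction. Whether they vary together or share a regulator was not tested. Each run is the 250 bases before the RefSeq start of the gene (GRCm38.p6), 5′ to 3′ on the strand of the gene. By the GENCODE positions given above, the whole Tnfrsf14 run and the last bases of the Tnfsf10 run lie inside the gene. Capitals mark matches to the interferon response pattern (GAAA, any 2 bases, GAAA), to TTCNNNGAA, the STAT pattern, and to CTTTGAA or CTTTGAT, the TCF/LEF patterns, on either strand.
Tnfsf10, chr3:27316827-27317076, plus strand: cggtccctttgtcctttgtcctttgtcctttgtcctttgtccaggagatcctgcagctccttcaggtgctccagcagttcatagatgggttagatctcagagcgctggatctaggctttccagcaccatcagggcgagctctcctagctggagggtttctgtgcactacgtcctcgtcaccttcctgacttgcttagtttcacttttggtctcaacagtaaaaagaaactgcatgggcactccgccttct
Tnfrsf14, chr4:154928078-154928327, minus strand: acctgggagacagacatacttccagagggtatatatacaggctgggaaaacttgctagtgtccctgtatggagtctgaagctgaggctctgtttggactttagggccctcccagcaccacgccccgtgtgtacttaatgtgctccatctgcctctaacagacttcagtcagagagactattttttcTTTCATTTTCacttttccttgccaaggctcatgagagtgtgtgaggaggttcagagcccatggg
Tnfrsf8, chr4:145315165-145315414, minus strand: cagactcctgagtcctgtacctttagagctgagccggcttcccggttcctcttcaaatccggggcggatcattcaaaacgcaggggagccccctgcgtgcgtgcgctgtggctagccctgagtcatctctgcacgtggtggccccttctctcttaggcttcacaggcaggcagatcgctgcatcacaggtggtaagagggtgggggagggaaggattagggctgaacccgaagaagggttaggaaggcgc
Tnfrsf1b, chr4:145246871-145247120, minus strand: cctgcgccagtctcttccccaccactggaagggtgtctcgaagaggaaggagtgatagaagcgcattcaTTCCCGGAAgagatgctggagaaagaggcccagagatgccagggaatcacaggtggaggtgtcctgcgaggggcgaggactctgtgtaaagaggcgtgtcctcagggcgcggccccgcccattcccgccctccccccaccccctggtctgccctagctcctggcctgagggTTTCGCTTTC
Fas, chr19:34290409-34290658, plus strand: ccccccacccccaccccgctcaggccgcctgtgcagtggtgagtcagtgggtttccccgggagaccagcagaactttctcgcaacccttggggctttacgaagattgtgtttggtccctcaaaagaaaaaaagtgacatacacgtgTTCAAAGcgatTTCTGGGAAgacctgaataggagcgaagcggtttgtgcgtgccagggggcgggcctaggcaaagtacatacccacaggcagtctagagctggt
The interferon response pattern occurred in Tnfrsf14 (55 to 64 bases before the RefSeq start) and Tnfrsf1b (1 to 10 bases before it). Of the other members only the BAFF gene Tnfsf13b had it. That is 3 of the 25 members with a promoter, or 3 of their 29 windows, beside 2.97% of 32817 promoter windows of all genes. The STAT pattern occurred in 7 of 25 members (7 of 29 windows), Fas and Tnfrsf1b among them, and in 7.01% of all windows. CTTTGAA, one of the TCF/LEF patterns, occurred in Fas alone (1 of 29 windows) and in 4.46% of all windows. CTTTGAT occurred in Tnfrsf19 and Tnfrsf9 (2 of 29 windows) and in 3.21% of all windows. The loose NF-kB pattern (GGG, any 5 bases, CC), not in capitals, occurred in 18 of 25 members (19 of 29 windows) and in 45.8% of all windows. The marked patterns did not overlap each other in these promoters. Such a match is a description of the letters and not a binding site, and windows without one say nothing of the factor.

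Other members that act on lymphocytes did not pass. Of the 6 costimulation receptors Tnfrsf8 alone was called, while Cd40 (1.90 and 2.87 FPKM on average), Cd27 (0.370 and 0.684), Tnfrsf9 (2.94 and 3.19), Tnfrsf18 (2.70 and 3.44) and Tnfrsf4 (1.54 and 1.62) had limma adjusted p between 0.179 and 0.993. Cd27 shares all its values with a microRNA gene and overlaps Vamp1, and Tnfrsf9 overlaps Camta1, so their levels are uncertain. The ligand of 4-1BB, Tnfsf9, averaged 10.3 ± 1.86 and 6.90 ± 2.16 FPKM (change -0.54, limma adjusted p = 0.097), and passed without Villin-WlscKO tumor 4 (change -0.67, limma adjusted p = 0.0391). The OX40 ligand Tnfsf4 averaged 0.624 and 0.434 FPKM (change -0.15, limma adjusted p = 0.666).

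In the BAFF and APRIL axis, which sustains B and plasma cells, all 3 measured members had positive changes and none passed. BAFF (Tnfsf13b) averaged 4.48 ± 0.913 and 6.10 ± 1.26 FPKM (change 0.37, limma adjusted p = 0.147), and its receptor TACI (Tnfrsf13b) 0.506 ± 0.181 and 0.965 ± 0.234 FPKM (change 0.38, limma adjusted p = 0.0877). APRIL (Tnfsf13) shares its values with TWEAK (Tnfsf12), at 10.5 ± 2.06 and 14.6 ± 3.35 FPKM (change 0.43, limma adjusted p = 0.147), and which gene the value stands for cannot be told apart. B and plasma cell markers (5 genes) summed to 26.6 to 127 FPKM in control and 68.4 to 355 FPKM in Villin-WlscKO tumors. Most of each sum was Jchain, which averaged 50.9 and 197 FPKM and did not pass (limma adjusted p = 0.0699). Of the 5 genes Mzb1 alone passed (limma adjusted p = 0.0331).

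RANK (Tnfrsf11a), the receptor of RANKL, averaged 8.16 ± 1.39 and 12.7 ± 3.32 FPKM (change 0.56, limma adjusted p = 0.0645). It passed without control tumor 3 (limma adjusted p = 0.0472), without Villin-WlscKO tumor 2 (limma adjusted p = 0.0257) and at a common FPKM sum (limma adjusted p = 0.0335). Fn14, the TWEAK receptor, averaged 114 ± 9.48 and 91.8 ± 16.7 FPKM (change -0.32, limma adjusted p = 0.118). TROY (Tnfrsf19), known as a Wnt target in intestinal stem cells, averaged 25.7 ± 4.97 and 18.2 ± 3.52 FPKM (change -0.47, limma adjusted p = 0.0753), where control tumor 1 at 34.3 FPKM stood apart. Eda2r on the X chromosome averaged 2.53 ± 1.24 and 2.96 ± 0.837 FPKM (change 0.20, limma adjusted p = 0.637), and the TRAIL receptor relative Tnfrsf26 0.633 and 0.434 FPKM (change -0.19, limma adjusted p = 0.432). TL1A (Tnfsf15), the ligand of Tnfrsf25, averaged 0.671 and 0.625 FPKM (change -0.04, limma adjusted p = 0.871).

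A ratio of FPKM values within 1 tumor depends little on scaling between tumors, so 12 ligand to receptor and receptor to receptor pairs were compared on the log2 scale with FPKM + 1, with exact two-sided permutation tests adjusted over the 12. The pairs were chosen after the values were seen, and the ratios of Tnfrsf1b and Tnfsf10 restate in part the changes above. The ratio of Tnf to Tnfrsf1b was 0.638, 0.617, 0.640, 0.586 and 0.615 in control tumors 1 to 5 and 0.524, 0.326, 0.336, 0.366 and 0.339 in Villin-WlscKO tumors. The control ratios sat within a narrow range above every Villin-WlscKO ratio, although the level of either gene varied between control tumors. The difference was -0.72 on the log2 scale (SE 0.12, exact permutation adjusted p = 0.0317).

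Relative to its death receptor Tnfrsf10b, Tnfsf10 had ratios from 0.768 to 2.26 in control and from 2.51 to 6.49 in Villin-WlscKO tumors, a difference of 1.17 (SE 0.32, exact permutation adjusted p = 0.0317). Relative to the decoy osteoprotegerin, its ratio was 0.0281 to 0.0878 in control and 0.120 to 0.288 in Villin-WlscKO tumors, a difference of 1.45 (SE 0.34, exact permutation adjusted p = 0.0317). In neither pair did the groups overlap. The ratio of Tnfrsf1b to Tnfrsf1a was higher by 0.49 in Villin-WlscKO tumors (exact permutation adjusted p = 0.0476), with overlapping groups. The other 8 pairs had adjusted p of 0.0762 or more, among them Tnf to Tnfrsf1a at -0.23 (exact permutation adjusted p = 0.486).

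**Figure D4:**
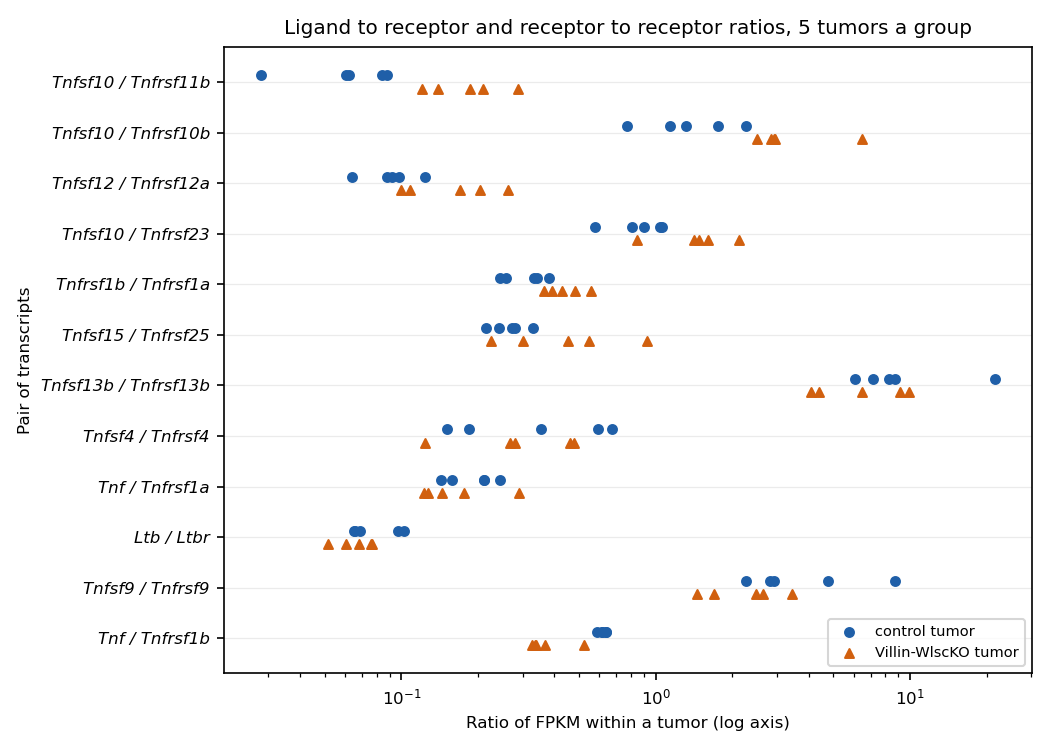
FPKM ratio of each of 12 pairs of superfamily transcripts within each tumor on a log axis, control and Villin-WlscKO tumors in separate colors. Tnf to Tnfrsf1b lies within 0.586 to 0.640 in control and 0.326 to 0.524 in Villin-WlscKO tumors, and Tnfsf10 to Tnfrsf10b and to Tnfrsf11b separate the groups the other way.

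Of 82 listed genes that act downstream of or beside these receptors, 77 were tested, and 9 were higher and 3 lower in Villin-WlscKO tumors, 15.6% beside 10.9% of all genes. Among ubiquitin and kinase steps to NF-kB, 3 of 18 rose and none passed in the other direction. Rnf31, the catalytic subunit of the linear ubiquitin complex, rose from 29.7 to 51.5 FPKM (change 0.77, limma adjusted p = 6.67e-05). The NF-kB inhibitor A20 (Tnfaip3) rose from 11.7 to 21.97 FPKM (change 0.85, limma adjusted p = 0.0033), and its partner Tnip3 from 28.2 to 62.6 FPKM (change 1.11, limma adjusted p = 0.0013). A20 is a known inducible brake of the pathway.

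Among death receptor effectors no gene passed in the downward direction. Casp8, the initiator caspase bound by death receptors, rose from 57.8 to 87.2 FPKM (change 0.59, limma adjusted p = 0.000769). Bak1, a pore former of the mitochondrial route, rose from 60.8 to 96.7 FPKM (change 0.63, limma adjusted p = 0.0224), a call lost without control tumor 4 or 5 or Villin-WlscKO tumor 3 (limma adjusted p = 0.0578, 0.0515 and 0.0561) and without Villin-WlscKO tumors 2 and 3 together (limma adjusted p = 0.113). Sppl2a, a protease that cleaves membrane stubs of TNF and Fas ligand, rose from 72.6 to 136 FPKM as the only one of 7 shedding genes past the threshold (change 0.88, limma adjusted p = 0.000487).

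Among the NF-kB proteins, Rel was the only one of 10 NF-kB and IkB genes to pass, from 4.09 to 6.60 FPKM (change 0.58, limma adjusted p = 0.0298), with overlapping groups. The Rel call was lost on leaving out any 1 tumor except control tumors 3 and 5 and Villin-WlscKO tumor 5 (limma adjusted p up to 0.0728), without Villin-WlscKO tumors 2 and 3 (limma adjusted p = 0.115) and with the replicate number as a block (limma adjusted p = 0.0729). Of 15 NF-kB induced genes the adhesion molecule Icam1 rose from 16.8 to 29.4 FPKM with overlapping groups (change 0.76, limma adjusted p = 0.0351), and the matrix protease Mmp9 fell from 21.9 to 6.97 FPKM (change -1.53, limma adjusted p = 0.0197). Icam1 was lost on leaving out any 1 tumor except control tumors 3 and 4 and Villin-WlscKO tumor 5 (limma adjusted p up to 0.0867), and Mmp9 without Villin-WlscKO tumor 3 (limma adjusted p = 0.0511). Without Villin-WlscKO tumors 2 and 3 the adjusted p by limma was 0.166 for Icam1 and 0.0802 for Mmp9. Among 11 tested adaptor genes Traf4 fell from 96.7 to 77.3 FPKM (change -0.32, limma adjusted p = 0.0236) and Traf3, a brake on the noncanonical NF-kB route, from 11.7 to 9.65 FPKM (change -0.25, limma adjusted p = 0.0378). Neither Traf call held once all tumors were brought to 1 common FPKM sum (limma adjusted p = 0.246 and 0.327), Traf3 was lost on leaving out any 1 tumor (limma adjusted p from 0.0519 to 0.0948), and Traf4 without Villin-WlscKO tumor 3 or 4 (limma adjusted p = 0.0576 and 0.0501). Without Villin-WlscKO tumors 2 and 3 the adjusted p by limma was 0.107 for Traf3 and 0.0805 for Traf4, and with the replicate number as a block it was 0.0853 for Traf3.

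Several of the receptors that rose are carried by leukocytes. Sums of T cell, NK and cytotoxic, neutrophil, and B and plasma cell markers had higher medians in Villin-WlscKO tumors. Their exact permutation p was 0.00794, 0.0159, 0.0238 and 0.0317 in that order, not adjusted over the 10 lists. Among them only the T cell sums did not overlap between groups. Macrophage and dendritic cell sums showed no difference past their spread (exact permutation p = 0.619 and 0.405). T cell markers (9 genes) summed to 12.03 to 17.5 FPKM in control and 17.8 to 30.8 FPKM in Villin-WlscKO tumors without overlap. Of the 9, 8 had positive changes and 4 were higher by limma at an adjusted p under 0.05, as were 6.12% of all tested genes. Cd4 went from 3.07 to 2.88 FPKM and Lck from 6.83 to 6.97 FPKM, neither past the threshold. NK and cytotoxic markers (4 genes) summed to 1.05 to 6.95 and 6.39 to 18.4 FPKM, with 3 of 4 higher. Neutrophil markers (5 genes) summed to 225 to 750.3 and 579 to 1205 FPKM, with none past the threshold, and macrophage markers (8 genes) to 223 to 385 and 207 to 414 FPKM. S100a8, S100a9 and Ly6g made up most of each neutrophil sum. Of the 8 macrophage genes Cd14 alone was higher (limma adjusted p = 0.0357), and 5 had negative changes. Dendritic cell markers (3 genes) summed to 6.19 to 12.2 and 4.65 to 12.2 FPKM, with negative changes in 2 of the 3 and none past the threshold. Cd8b1, Ncr1, Prf1, Pax5, Flt3, Xcr1, Cd209a, Mpo and Elane were not analysed here. The part of these cell markers in the changes of Tnfrsf1b, Tnfrsf8, Tnfrsf14, Fas and Tnfsf10 was not tested.

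**Figure D5:**
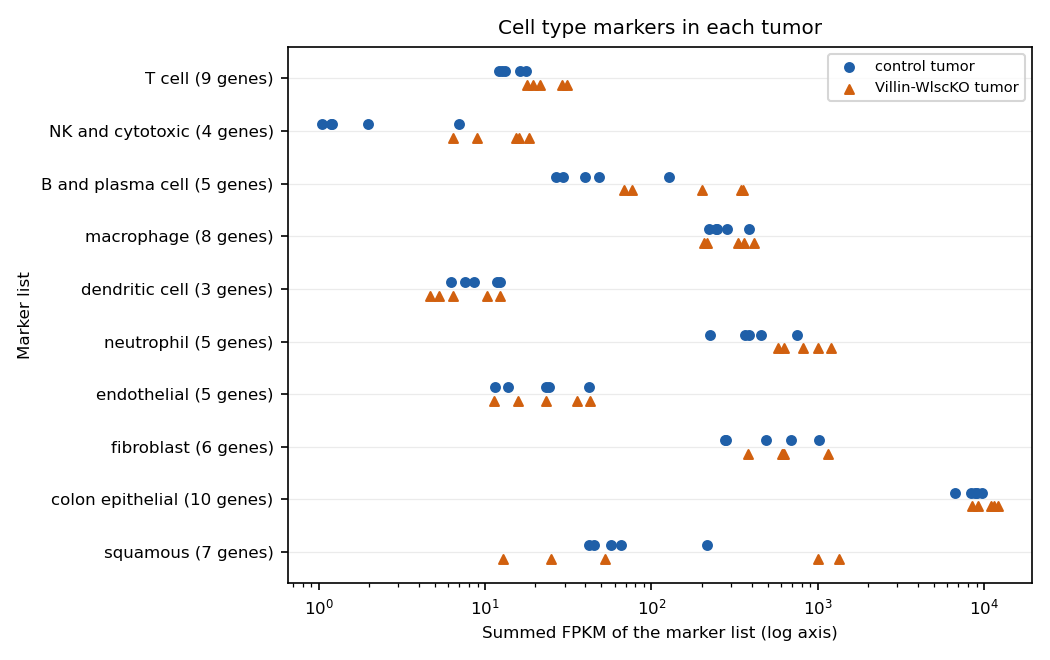
Summed FPKM of 10 lists of cell type markers in each tumor on a log axis, control and Villin-WlscKO tumors in separate colors. T cell sums do not overlap between groups, macrophage, fibroblast and endothelial sums do, and squamous sums are highest in Villin-WlscKO tumors 2 and 3.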

How the data were processed

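RNA of macrodissected tumors was sequenced with a stranded mRNA kit. Per the labels and the study's methods, the authors checked reads with FastQC, aligned them with TopHat 2.1.1 to GRCm38.p5, assembled and quantified transcripts with Cufflinks 2.2.1, and obtained values per tumor from a Cuffdiff run without merged transcripts. They deposited 1 table of FPKM values with 10 tumor columns, in which 2419 of 16875 names share all values with another name. The annotation release, and whether counting used strand, are not given in the sources used here.

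FPKM sums were 1265992 to 1533885 per control tumor and 1207683 to 1341494 per Villin-WlscKO tumor. Low values showed no steps of whole reads, so sequencing depth is unknown and no count test was run.

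Genes with a mean of at least 0.5 FPKM (16757) were tested as log2(FPKM + 1) with limma 3.58.1 in R 4.3.3 (empirical Bayes with trend, no covariates, Benjamini-Hochberg adjusted p under 0.05). Changes on this scale understate those of low genes. On simulated data with 200 of 16757 genes changed, limma recovered 74 of 100 at a log2 change of 1 and 90 of 100 at 2. Single values used exact two-sided permutation tests with scipy 1.17.1. Promoter patterns were counted in RefSeq windows of GRCm38.p6, and gene positions and overlaps come from the GENCODE annotation of GRCm38.

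Members and gene lists were chosen with earlier results of these data known. Every member is named, as are the pathway genes past the threshold, except 1 result that is not reported here. Alternatives varied scaling, pseudocount, filter, fit and the tumors included.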

Additional observations from a re-analysis of the deposited data

Results flagged for a closer look

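In groups of 5 tumors, 86 groups (of the members with distinct values and the downstream genes past the threshold) were checked for a tumor far from the rest, by the gap to its nearest neighbor as a share of the group's range. Above the critical share of 0.71 lay 3, and chance alone gives about 1 in 20 groups. Control tumor 1 had 34.3 FPKM of Tnfrsf19, the Wnt-linked receptor TROY, against 25.5 FPKM in the next control tumor (share 0.711). Control tumor 3 had 3.23 FPKM of Tnfrsf8 against 1.69 FPKM (share 0.769), and 15.7 FPKM of Tnfaip3 against 11.4 FPKM (share 0.724). Both lay in the direction of the Villin-WlscKO group.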

How the results depend on the processing

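The calls of Tnfrsf14, Tnfrsf1b and Fas held in every alternative, those of Ngfr and Tnfrsf8 in every one that tested them (a mean of at least 5 FPKM leaves both out), and that of Tnfsf10 in all but the fit without Villin-WlscKO tumors 2 and 3. That fit called 1092 genes in place of 1822 (1231 to 1983 on leaving out 1 tumor). It called 4 members higher and 2 lower, and 0 downstream genes lower. Rescaling to a sum of 1000000 FPKM called 1385 genes higher and 412 lower in place of 1026 and 796, moved the median change of all genes from 0.0073 to 0.097, left 1 downstream gene lower in place of 3, and called 7 members higher in place of 5, Ltbr and Tnfrsf11a being added. At a mean of at least 5 FPKM the median change of the members was 0.40 and 0 members were lower. On leaving out 1 tumor the members gave 5 to 7 higher and 1 to 2 lower calls, a median of 0.22 to 0.30, and 0 to 2 downstream genes lower. With the replicate number as a block, 8 members were higher, Tnfrsf11a, Tnfsf12 and Tnfsf13 being added, of which Tnfsf12 and Tnfsf13 share all values. The number is no known pairing: same-numbered deviations correlated at -0.087 to 0.16, and 5 of 10 tumors correlated best with their own number. Changes near 0 turned sign. Ltb was 0.080 after rescaling to one sum, 0.046 with tumor weights and -0.079 to 0.058 on leaving out 1 tumor. Tnfrsf4 was 0.062, 0.014 and -0.15 to 0.14. Tnfsf15 was 0.0011 after rescaling. Tnfrsf9 was -0.042 without Villin-WlscKO tumors 2 and 3 and -0.045 to 0.30 on leaving out 1 tumor. Of the ratios, Tnf to Tnfrsf1a was 0.020 and Tnfsf4 to Tnfrsf4 0.077 without tumors 2 and 3 (the latter -0.26 to 0.026 on leaving out 1 tumor), and Tnfsf13b to Tnfrsf13b was 0.081 after rescaling and -0.11 to 0.11 on leaving out 1 tumor. The cause of these changes was not tested. With unknown depth, members under 1 FPKM have no stated counting error.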

Other observations

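Among the 31 distinct profiles of members, control tumor 3 had the highest control value for 13 and the lowest for 0, whereas each other control tumor was highest for 4 to 6. The share of all tested genes that peak in control tumor 3 was not counted. Control tumor 3 also had the highest control sums of neutrophil (750.3 FPKM), B and plasma cell (127 FPKM) and fibroblast markers (1010 FPKM). The same held for endothelial (42.1 FPKM) and colon epithelial markers (9743 FPKM). T cell (17.5 FPKM) and macrophage sums (385 FPKM) peaked in control tumor 4, NK and cytotoxic (6.95 FPKM) and squamous sums (215 FPKM) in control tumor 1. The dendritic cell sum was highest in control tumor 1 (12.2 FPKM) and lowest in control tumor 3 (6.19 FPKM). In the Villin-WlscKO group the squamous tumors 2 and 3 both lay above the other 3 tumors for 6 members, namely Tnfrsf1a, Tnfrsf18, Tnfrsf25, Fas, Ltb and Ngfr, and lay below them for none. Of all tested genes 16.1% had the pair above and 12% had it below.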
